A study of Mus musculus with 35 samples.

Results

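The response of splenic monocytic myeloid-derived suppressor cells (M-MDSC) to poly(I:C)c was measured by RNA-seq in 4 libraries from treated mice and 4 from untreated mice, 8 of the 35 libraries of the series. The libraries were chosen by the cell type, organ and treatment in their labels, and the 8827 of 53379 genes that averaged 25 or more counts across them were tested. All hosts were female C57BL/6 mice of 6 to 12 weeks that bore tumors implanted into the pancreas. The tumors were grown from T110299, 1 line derived from the KPC model, a mouse model of pancreatic cancer in which Ptf1a-Cre recombines engineered alleles in the pancreas, among them p53 (fl/R172H), while the immune cells of the hosts were wild type. Treated mice were given 50 µg of poly(I:C) HMW in complex with the carrier in vivo-jetPEI (N/P ratio of 6) by the intravenous route on days 18 and 20 of tumor growth. Control mice received glucose according to the treatment protocol in the labels, while the labels of the libraries call them untreated, as is done here. Cells from the spleen were enriched for CD11b on magnetic beads and then sorted as live CD11b+ Ly6C high Ly6G- cells, so the group is defined by 3 surface proteins and may hold more than 1 cell type. The series implanted 8 mice, of which 4 were treated, and each library of a group has a number of its own in the labels.

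Poly(I:C) imitates the double-stranded RNA of viruses. Once a carrier brings it into the cytosol it is bound by MDA5, which signals through the adaptor MAVS to switch on type I interferon genes, and secreted interferon acts through the receptor IFNAR, JAK kinases and STAT proteins on many interferon-stimulated genes in the same and in other cells. M-MDSC are immature monocytes that accumulate in the spleen and tumor of tumor-bearing hosts and restrain T cells, among other means by consuming arginine, making nitric oxide and displaying PD-L1. In bulk libraries, fewer cells of a type and less RNA per cell cannot be told apart.

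Only promoters that hold the motif marked below were eligible to be printed, so its presence in them is not a result. The 4 promoters printed here belong to genes from 4 steps of this pathway that rose in the treated libraries, namely the signal transducer Stat2, the ubiquitin-like modifier Isg15, the antiviral enzyme Rsad2 and the chemokine Cxcl10. Each is the stretch of 250 bases before the gene start, from RefSeq on GRCm38.p6, read 5′ to 3′ on the strand of the gene. Capitals mark the motif GAAANNGAAA or its reverse complement TTTCNNTTTC, the core of the element bound by interferon regulatory factors.
Stat2 (chr10:128270248-128270497, + strand): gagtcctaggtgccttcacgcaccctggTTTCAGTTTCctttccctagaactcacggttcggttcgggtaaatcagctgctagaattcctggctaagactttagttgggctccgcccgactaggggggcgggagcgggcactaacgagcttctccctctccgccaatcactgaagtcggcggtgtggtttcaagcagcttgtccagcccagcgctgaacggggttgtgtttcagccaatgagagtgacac
Isg15 (chr4:156200819-156201068, - strand): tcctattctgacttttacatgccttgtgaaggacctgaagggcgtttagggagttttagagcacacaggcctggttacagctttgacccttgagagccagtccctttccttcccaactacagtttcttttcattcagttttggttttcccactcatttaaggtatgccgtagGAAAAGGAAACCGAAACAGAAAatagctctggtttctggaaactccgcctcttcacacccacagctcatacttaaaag
Rsad2 (chr12:26456453-26456702, - strand): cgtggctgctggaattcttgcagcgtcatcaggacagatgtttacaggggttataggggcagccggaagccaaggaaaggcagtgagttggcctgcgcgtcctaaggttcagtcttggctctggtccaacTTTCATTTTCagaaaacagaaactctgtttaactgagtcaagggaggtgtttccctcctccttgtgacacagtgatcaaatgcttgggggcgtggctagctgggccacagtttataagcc
Cxcl10 (chr5:92348890-92349139, - strand): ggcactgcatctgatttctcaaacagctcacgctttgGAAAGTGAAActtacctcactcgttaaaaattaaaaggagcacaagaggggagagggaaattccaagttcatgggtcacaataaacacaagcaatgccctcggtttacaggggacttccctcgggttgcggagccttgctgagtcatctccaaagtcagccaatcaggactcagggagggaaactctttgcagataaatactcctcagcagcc
The marked stretch began 222 bases before the start of Stat2, 78 before that of Isg15, 120 before that of Rsad2 and 213 before that of Cxcl10, and in Isg15 it consisted of 3 overlapping matches. In a window of 300 bases (250 before and 50 after the start, both strands), 1131 of 32851 RefSeq promoters (3.44%) held the motif. It was present in 29 of the 122 promoters found for genes called higher (23.8%) and in 1 of the 39 found for genes called lower (2.56%), by the strict rule given with the counts of genes. Another motif, TTCNNNGAA, the core of the site bound by STAT dimers, was present in 8.30% of all promoters, in 15 of the 122 (12.3%) and in 5 of the 39 (12.8%). The promoter table matched only 75.8% of the genes called higher and 68.4% of those called lower, below the 80% set as a minimum, so the check of shares is void and nothing is read from it.

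The libraries held 1896132 to 4200907 counts in the untreated group and 2261063 to 3435054 in the treated group, and 7.71 to 9.27% of the counts fell on mitochondrial genes. Replicates differed from each other by far more than sampling noise (chi-square per degree of freedom of 7.05 to 12.1 in untreated pairs and 10.2 to 37.0 in treated pairs), so no library was a copy. Levels are given as CPM, counts scaled to the total of the library over the tested genes after TMM adjustment. Taken as the smallest detectable level, 3 counts were 0.714 to 1.58 CPM per library when scaled to the unadjusted library total. Defining markers of monocytes were present in all libraries. Csf1r, the receptor for M-CSF, held 1658, 1446, 1474 and 1566 CPM in the untreated libraries and 1408, 1719.9, 1501 and 733 CPM in the treated ones. The integrin gene Itgam, which encodes CD11b, held 233, 273, 324 and 283 CPM untreated and 339, 284, 362 and 322 CPM treated. Ly6g, whose product was gated out, stayed at or below 4.87 CPM in all 8 libraries, with 53 counts in total, and was too low to be tested.

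Treated replicate 4 stood apart. The summed level of 12 B cell and plasma cell markers was 23234 CPM in this library, against 215 to 664 CPM in the other treated and 239 to 509 CPM in the untreated libraries, and the sum was led by Ighm (14412 CPM) and Igkc (7527 CPM). In the same library, 10 T cell markers summed to 77.2 CPM (5.68 to 6.45 CPM in the other treated libraries) and 10 NK cell markers to 339 CPM (13.0 to 19.4 CPM), with Gzmb at 149 and Gzma at 117 CPM. Its chi-square per degree of freedom against the other treated libraries was 18.2 to 37.0. Beside the results, counts of list members are also given without it where they moved by at least 2 members or by over 1.5 times, and named genes where they lost their call.

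**Figure D1:**
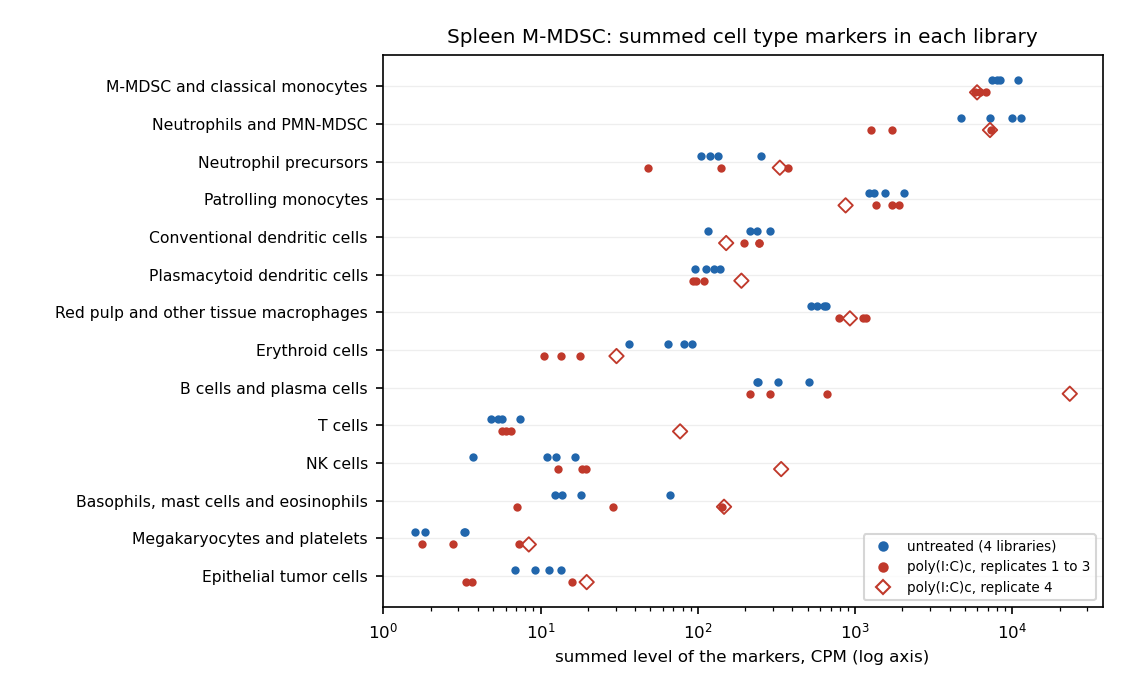
Summed level of the markers of 14 cell types in each of the 8 spleen M-MDSC libraries, in CPM on a log axis. Each point is 1 library, blue for untreated and red for treated, and the open diamond is treated replicate 4, which stands far to the right of all other libraries for B cells and plasma cells (23234 CPM), T cells (77.2 CPM) and NK cells (339 CPM).

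Other markers differed between the groups as well, and their part in the results below was not tested. The 12 markers of M-MDSC and classical monocytes summed to 7474 to 10819 CPM untreated and 5778 to 6858 CPM treated, without overlap, a sum that contains Fn1 and Ccr2, which fell, and Ly6c2, which rose. The sum of 13 markers of red pulp and other tissue macrophages was higher in every treated library, with 524 to 651 CPM untreated and 790 to 1172 CPM treated. Of the 10 tested markers of this list 4 rose and 1, Hpgd, fell. The 11 erythroid markers summed to 36.5 to 91.5 CPM untreated and 10.4 to 30.4 CPM treated. Neutrophil markers overlapped between the groups (4701 to 11409 CPM untreated, 1269 to 7361 CPM treated), as did those of patrolling monocytes (1233 to 2048 CPM and 872 to 1910 CPM) and of conventional dendritic cells (116 to 288 CPM and 152 to 246 CPM). The 9 markers of basophils, mast cells and eosinophils summed to 12.3 to 66.4 CPM untreated and to 142, 28.9, 7.07 and 147 CPM treated, so that treated replicates 1 and 4 were above all untreated libraries, while Mcpt8 and Fcer1a of this list were at 0 in all 8 libraries. Neutrophil precursor markers were also highest in these 2 libraries (373 and 333 CPM, against 105 to 252 CPM untreated). Xcr1, which marks type 1 dendritic cells, was at 0 in all 8 libraries.

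At an adjusted p under 0.001 and 2-fold or more (edgeR quasi-likelihood F-test, adjusted by Benjamini-Hochberg over all tested genes), 161 genes were higher after poly(I:C)c (1.82% of the genes tested) and 57 were lower (0.646%). All of these genes had treated and untreated CPM ranges that did not overlap, which was the case for 2277 of all tested genes (25.8%). DESeq2 called 377 genes higher and 233 lower by the same rule. In what follows, genes are said to rise or fall where they passed an adjusted p under 0.05, the rule met by 942 genes upward (10.7%) and 791 downward (8.96%). All counts of list members below are to be read against these shares. Changes are log2 fold changes with their standard error, and the median over all tested genes was −0.01. Without treated replicate 4, 188 genes were higher and 58 lower by the strict rule, of which 150 and 38 were among those called with it. Leaving out any of the other 7 libraries lowered the numbers, to between 49 (without untreated replicate 1) and 130 higher and between 8 and 50 lower genes.

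**Figure D2:**
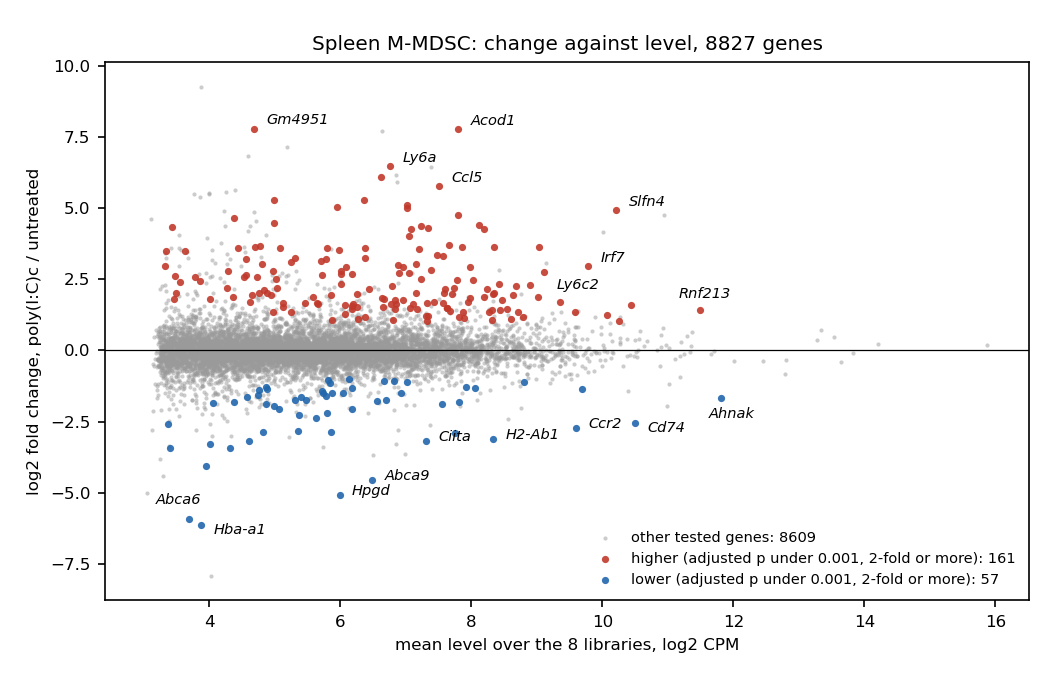
Log2 fold change of poly(I:C)c over untreated (vertical axis) against the mean level over the 8 libraries in log2 CPM (horizontal axis) for the 8827 tested genes. Red points are the 161 genes called higher and blue points the 57 called lower, from Acod1 and Gm4951 at the top to Abca6 and Hba-a1 at the bottom.

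The largest increases among the genes past the strict rule were in genes of several functions, among them antiviral and other defense genes. Ifi44, Rsad2, Oasl1, Iigp1, Slfn4, Ccl5 and Cfb were also among these increases and are described below. Acod1, whose product makes itaconate, held 1.6, 2.85, 1.64 and 1.83 CPM in the untreated libraries and 268, 549, 570.4 and 381 CPM in the treated ones, a rise of 7.79 ± 0.35 (adjusted p = 6.22e-06). Ly6a, the stem cell antigen Sca-1, held 1.06, 3.32, 3.28 and 1.83 CPM untreated and 161, 154, 208 and 332 CPM treated, a rise of 6.48 ± 0.38. Both genes were near the detection limit in the untreated libraries and well above it in every treated one. Gm4951, an immunity-related GTPase gene, had 2 counts over all untreated libraries and 546 over the treated ones, a ratio of 276 between the groups (95% interval 75.9 to 2281, exact, covering counting error only). Kdr, the VEGF receptor 2 gene, rose by 5.27 ± 0.60, Rgs1, an inhibitor of G protein signaling, by 5.28 ± 0.50, Ccnd2, encoding cyclin D2, by 5.11 ± 0.35, Adgb, encoding androglobin, by 4.66 ± 0.57, and Fpr1, a receptor for formylated bacterial peptides, by 4.49 ± 0.33. Ccnd2 held 5.32, 4.27, 11.5 and 7.57 CPM untreated and 149.8, 242, 287 and 334 CPM treated. None of these genes overlapped between the groups, which was a condition for naming the largest changes in each direction.

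The largest decreases were in genes of lipid handling and other functions. Hpgd, which inactivates prostaglandins, held 97.3, 81.2, 153 and 162 CPM untreated and 2.44, 5.22, 2.47 and 4.21 CPM treated and fell by 5.08 ± 0.33. Abca9 and Abca6, a pair of lipid transporter genes, fell together: Abca9 held 186, 148, 173 and 184 CPM untreated and 8.52, 11.1, 6.36 and 2.34 CPM treated (fell by 4.55 ± 0.31), and Abca6 had 290 counts over the untreated and 4 over the treated libraries, a ratio of 71.8 (95% interval 27.8 to 265, exact). In all 3 genes the highest treated library lay far below the lowest untreated one. Hba-a1, which encodes alpha globin, had 338 counts untreated and 4 treated, a ratio of 83.7 (95% interval 32.4 to 309, exact). Hba-a1 is itself one of the erythroid markers whose sum was lower in the treated libraries, and the part of erythroid cells in its fall was not tested. Plxdc2, a plexin domain protein gene, fell by 4.06 ± 0.41, Stxbp6 by 3.3 ± 0.43, Nat8l by 3.19 ± 0.35, Deptor, an mTOR inhibitor gene, by 2.85 ± 0.35, Padi2, a peptidylarginine deiminase gene, by 2.85 ± 0.27 and Amz1 by 2.84 ± 0.35.

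Several sensors of nucleic acids rose. Of 19 tested RNA and DNA sensors and adaptors, 10 rose and 0 fell (median log2 change 0.68). Ifih1, the gene of the poly(I:C) receptor MDA5, held 121, 112, 132 and 137 CPM untreated and 440.4, 533, 564 and 298 CPM treated and rose by 1.87 ± 0.20 (adjusted p = 0.00026). Its relatives Ddx58, encoding RIG-I, and Dhx58, encoding LGP2, rose by 1.98 ± 0.16 and 1.65 ± 0.17. Ddx60, an RNA helicase gene, rose by 2.73 ± 0.31 and Zbp1, a sensor of Z-form nucleic acids, by 1.97 ± 0.27. The adaptor gene Mavs did not pass, with 31.4, 39.9, 19.7 and 34.6 CPM untreated and 28, 35.9, 26.5 and 25.3 CPM treated (log2 change −0.11 ± 0.22, adjusted p = 0.754). Tlr3, the endosomal receptor for double-stranded RNA, was too low to be tested, at 1.61 to 3.32 CPM untreated and 9.52 to 18.7 CPM treated.

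The interferon genes themselves were hardly present. Of 15 listed, 10 were at 0 in all libraries and 0 reached the filter, and Ifnb1 held 13 counts in all, each of them in treated libraries. The receptor genes Ifnar1 (186, 162, 144 and 189.7 CPM untreated, 140.1, 155, 156 and 125 CPM treated) and Ifnar2 (139.9, 133, 103 and 136 CPM and 111, 116, 102 and 102 CPM) did not pass (adjusted p = 0.221 and 0.194). Downstream of them, 6 of 25 tested receptor, JAK-STAT and IRF genes rose and 3 fell, against 10.7% and 8.96% of all tested genes. Their median was −0.09. Irf7, the transcription factor that amplifies interferon production, held 232, 229, 182 and 167 CPM untreated and 1328, 2214, 1670.3 and 1054 CPM treated, the largest rise of the list (2.95 ± 0.24, adjusted p = 6.97e-05). Stat2 rose by 1.47 ± 0.23 and the feedback inhibitor Socs1 by 2.02 ± 0.54, while Jak2 rose by 0.51 ± 0.12. Socs1 did not pass in 6 of the 14 alternative fits that tested it (adjusted p up to 0.121), among them those without untreated replicate 1, 3 or 4 or treated replicate 2 or 3, and Jak2 did not pass without untreated replicate 2 or 4 (up to 0.0635). The receptor for interferon gamma moved the other way, and Ifngr1 fell by 1.15 ± 0.20. Stat5b and Cish, which act in cytokine signaling through STAT5, fell by 0.40 ± 0.11 and 1.05 ± 0.32, but neither passed without treated replicate 4 (adjusted p = 0.0748 and 0.101), and they were lost in 6 and 10 of 15 alternative fits in all.

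Antiviral effectors rose widely. Of 38 tested, 33 rose and 1 fell, with a median log2 change of 1.70, and 24 were higher by the strict rule. Ifi44 held 1.6, 2.37, 4.1 and 2.75 CPM untreated and 181, 181, 302 and 111 CPM treated and rose by 6.11 ± 0.39. Rsad2, encoding viperin, held 28.7, 16.1, 27.9 and 27.5 CPM untreated and 376, 791, 565 and 401 CPM treated, a rise of 4.4 ± 0.30. Oasl1, of the oligoadenylate synthetase family, rose by 4.76 ± 0.32, and the genes Ifit1, Ifit1bl1 and Ifit2, whose family binds foreign RNA, rose by 4.27 ± 0.27, 4.26 ± 0.21 and 3.64 ± 0.19. Ifit1 held 27.1, 25.2, 30.8 and 32.1 CPM untreated and 384, 844, 577 and 431 CPM treated. Every treated library of these 6 genes was above every untreated one, as in all genes called higher by the strict rule. The exception in direction was Ifitm2, a membrane protein that restricts virus entry, which fell by 0.84 ± 0.20 from 73.9, 105, 63.1 and 74.8 CPM to 31.7, 49.8, 45.6 and 49.6 CPM and did not pass in the fit over the 4 M-MDSC groups (adjusted p = 0.0653). Ifit and Oas genes have close copies, and the division of reads among them is uncertain.

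The ISG15 system followed, with 7 of 8 tested genes rising and 0 falling. Isg15, a ubiquitin-like protein attached to other proteins during infection, held 19.1, 19, 11.9 and 12.6 CPM untreated and 193, 408, 232 and 169 CPM treated and rose by 4.02 ± 0.33 (adjusted p = 7.64e-05). Usp18, which removes ISG15, rose by 3.3 ± 0.25, and Ube2l6 and Herc6, which attach it, rose by 2.16 ± 0.21 and 1.82 ± 0.14.

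Other families of inducible defense genes rose too, although their members share sequence and the division of reads among them is uncertain. Of 20 tested guanylate-binding proteins and immunity-related GTPases, which attack pathogen vacuoles, 16 rose and 0 fell (median 1.48). Iigp1 held 2.66, 9.97, 1.23 and 1.83 CPM untreated and 97, 89.1, 198 and 92.6 CPM treated (rose by 5.03 ± 0.56), Gbp6 rose by 3.04 ± 0.29 and Tgtp2 by 2.65 ± 0.33. Of 18 tested PYHIN and Schlafen genes, 15 rose and 1 fell (median 1.36). Slfn4 held 71.3, 86.8, 85.3 and 58.9 CPM untreated and 2019.6, 2017, 3058 and 2083 CPM treated and rose by 4.93 ± 0.22, with no treated library near any untreated one. Its neighbor Slfn8 rose by 1.13 ± 0.11 and the PYHIN genes Ifi208 and Ifi206 by 3.59 ± 0.18 and 2.03 ± 0.19, while Slfn3 fell by 0.87 ± 0.23 but did not pass without untreated replicate 2 or 3 or treated replicate 3 (adjusted p up to 0.0718). Of 22 tested TRIM and PARP genes, 13 rose and 0 fell (median 0.80), among them Trim30b (1.46 ± 0.16), Trim34a (1.19 ± 0.13) and Parp9 (1.22 ± 0.16).

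Some of the genes called higher were neighbors. With at most 500 kb between consecutive genes, 37 of the 161 lay in 10 runs of at least 3, and 0 such runs were found among the 57 genes called lower. Runs were not counted for other sets of genes, so neither number has a background to be read against. On GRCm38, a run on chr19:34550694-34650009 held Ifit2, Ifit3, Ifit1bl1, Ifit3b and Ifit1, and these 5 were all the tested genes of the span. On chr11:83002158-83530518, Slfn8, Slfn1, Slfn4 and Ccl5 were called among 10 tested genes, and on chr1:173468485-174031810, Ifi206, Ifi213, Ifi208 and Ifi205 among 12. The other runs held genes of the Phf11, Ly6, H2-Q, H2-T, Trem, Oas and Trim30 families.

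**Figure D3:**
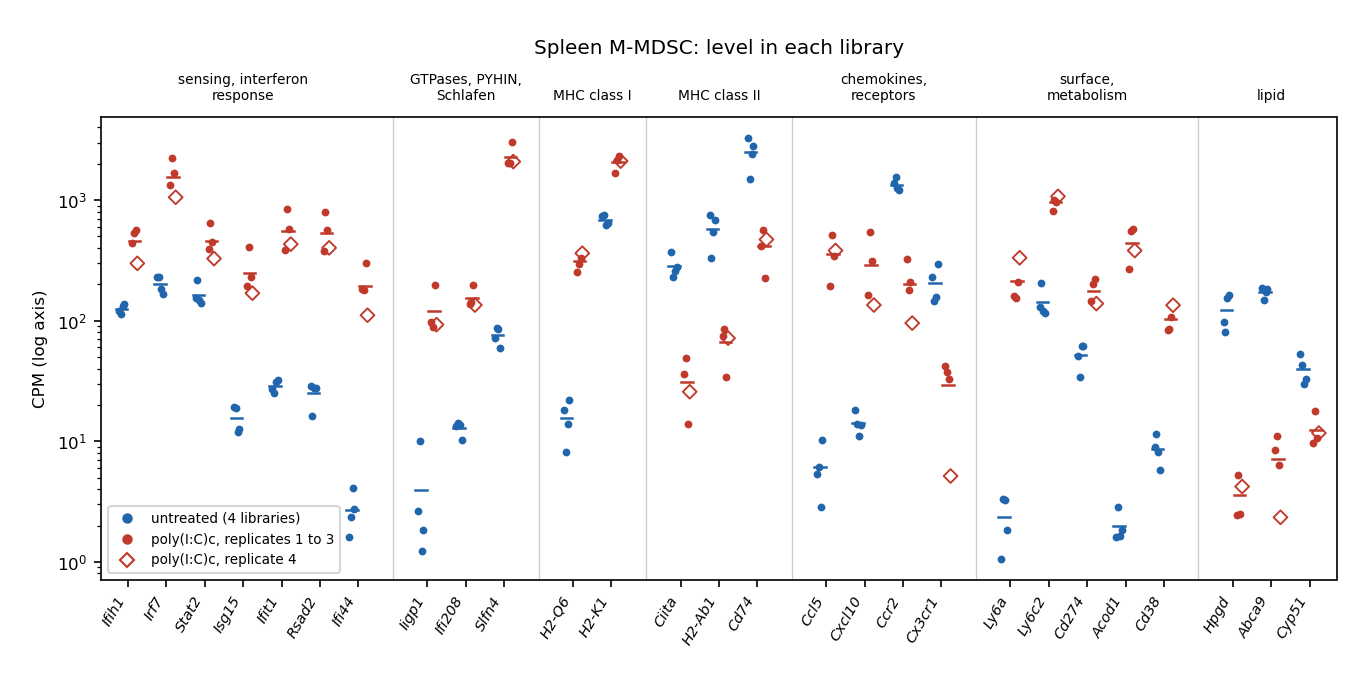
Level of selected genes in each spleen M-MDSC library, in CPM on a log axis, grouped by function. Each point is 1 library, blue for untreated and red for treated, the short lines are group means and the open diamond is treated replicate 4. In every gene selected here the treated and untreated libraries do not overlap, which was the case for 25.8% of all tested genes.

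The classes of antigen-presenting molecules moved in opposite directions. Of 25 tested MHC class I and peptide loading genes, 22 rose and 0 fell, with a median of 0.99. H2-K1, a classical class I heavy chain, held 731, 748, 623 and 651 CPM untreated and 1688, 2162, 2329.7 and 2103 CPM treated, a rise of 1.59 ± 0.14. The nonclassical genes rose as well, H2-Q6 by 4.28 ± 0.27, H2-Q7 by 3.35 ± 0.22, H2-Q4 by 2.18 ± 0.13 and H2-T22 by 2.16 ± 0.19, although the H2-Q and H2-T genes are near copies of each other and the division of reads among them is uncertain. H2-Q6 held 18.1, 8.07, 13.9 and 22 CPM untreated and 251, 293, 334 and 362 CPM treated. Of 11 tested MHC class II genes, 0 rose and 7 fell, with a median of −2.04 that became −1.07 in the fit without a filter on low counts. Ciita, the master activator of class II genes, held 371, 232, 257 and 279.5 CPM untreated and 36.1, 49.5, 13.8 and 25.7 CPM treated and fell by 3.18 ± 0.34 (adjusted p = 0.000357). The class II chains H2-Ab1 and H2-Aa fell by 3.13 ± 0.34 and 2.92 ± 0.35, and Cd74, the invariant chain, fell by 2.57 ± 0.32. H2-Ab1 held 759, 333, 547 and 683 CPM untreated and 74.7, 85.7, 33.9 and 71.6 CPM treated, and the highest treated library lay far below the lowest untreated one. Without treated replicate 4, which held most B cell markers, 7 of 10 tested class II genes fell and 1 rose. B cells and conventional dendritic cells also carry class II, and their part was not tested.

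**Figure D4:**
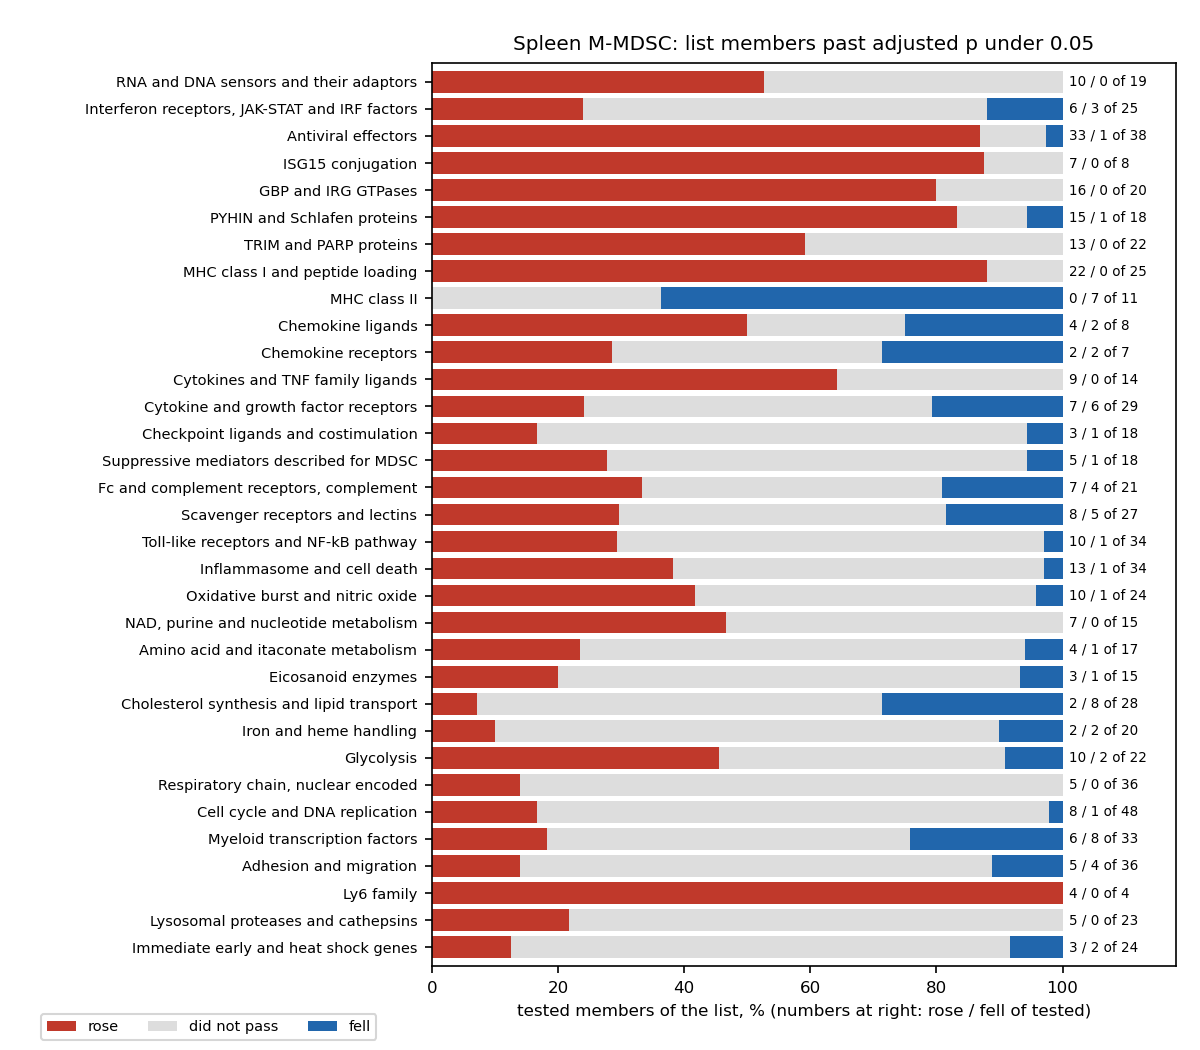
Share of the tested members of 33 function lists that rose (red), fell (blue) or did not pass an adjusted p under 0.05 (grey), in percent, with the numbers at the right. The share that rose is largest in the Ly6 list, of which only 4 of 14 members were tested. It is next largest in the MHC class I, ISG15 and antiviral lists, and the share that fell is largest for MHC class II (7 of 11).

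Chemokine genes were split. Of 8 tested ligands 4 rose and 2 fell. Ccl5, which attracts T cells and monocytes, held 5.32, 6.17, 2.87 and 10.3 CPM untreated and 192, 509.9, 345 and 382 CPM treated and rose by 5.76 ± 0.42. Cxcl10, which attracts T cells through CXCR3 and whose promoter is printed above, held 18.1, 13.8, 11.1 and 13.5 CPM untreated and 163, 541, 313 and 135 CPM treated and rose by 4.36 ± 0.48. Ccl4 and Ccl3, inflammatory chemokines, rose by 5.55 ± 0.78 and 3.61 ± 0.57 from levels near the detection limit. Ccl6 and Ccl9, also made by unstimulated myeloid cells, fell by 0.80 ± 0.16 and 0.59 ± 0.15, but Ccl6 did not pass in the fit over the 4 M-MDSC groups (adjusted p = 0.0629), and Ccl9 did not pass there, without any 1 of the untreated libraries or without treated replicate 1 (up to 0.163). Among the 7 tested receptors 2 rose and 2 fell. Ccr2, which takes monocytes out of the bone marrow, held 1374, 1558, 1247 and 1202 CPM untreated and 325, 179, 211 and 95.4 CPM treated and fell by 2.73 ± 0.32. Cx3cr1, the fractalkine receptor, fell by 2.81 ± 0.50, and treated replicate 4 was its lowest library with 5.15 CPM. Ccrl2, a receptor without G protein signaling, rose by 3.66 ± 0.35.

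Cytokine genes rose in several cases, and their receptors moved both ways. Of 14 tested cytokines and TNF family ligands, 9 rose and 0 fell. Il1rn, the antagonist of the interleukin-1 receptor, held 99.4, 44.6, 93.9 and 103 CPM untreated and 537, 977, 657 and 243 CPM treated (rose by 2.82 ± 0.43), Tnfsf10, encoding the death ligand TRAIL, rose by 2.66 ± 0.32, Ebi3, a subunit of interleukin-27, by 1.46 ± 0.20 and the interleukin-18 inhibitor Il18bp by 1.6 ± 0.27. Of 29 tested cytokine and growth factor receptors, 7 rose and 6 fell, with a median of −0.05. Il15ra, which presents interleukin-15 to lymphocytes, rose by 2.21 ± 0.17 and Il21r by 2.37 ± 0.33, while Acvrl1, a receptor of the TGF-beta family, fell by 1.48 ± 0.20, Il6ra by 0.90 ± 0.15 and Il17ra by 0.75 ± 0.15, the last of which did not pass in the fit over the 4 M-MDSC groups (adjusted p = 0.065). Tgfb1 did not pass, with 668, 638, 590.0 and 599 CPM untreated and 436, 552, 469.7 and 254 CPM treated (log2 change −0.54 ± 0.21, adjusted p = 0.0987).

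Some of the genes by which M-MDSC are known to restrain T cells changed. Of 18 tested suppressive mediators, 5 rose and 1 fell, against 10.7% and 8.96% of all tested genes. Of 18 checkpoint ligands and costimulators, 3 rose and 1 fell, which was near those shares. Without treated replicate 4, 5 of 16 mediators rose and 2 fell, and 4 of 18 checkpoint genes rose and 2 fell. Cd274, which encodes PD-L1, held 50.5, 34.2, 61.5 and 61.5 CPM untreated and 147, 202, 219 and 138 CPM treated and rose by 1.76 ± 0.22 (adjusted p = 0.000751). Lgals9, encoding galectin-9, rose by 1.68 ± 0.17, and of the SLAM family Ly9 rose by 1.44 ± 0.25 while Cd244a fell by 0.99 ± 0.13. Cd244a and Ly9 overlap on opposite strands of chromosome 1. Reads were counted by strand, and how fully this separates the genes was not tested. Cd86 did not pass, with 43.6, 39.9, 42.6 and 41.7 CPM untreated and 34.1, 44.5, 55.8 and 22 CPM treated (log2 change −0.09 ± 0.24, adjusted p = 0.825). Among the mediators that rose beside Acod1 were Ptges, encoding prostaglandin E synthase (3.25 ± 0.67), and Ddit3, the stress factor CHOP (1.25 ± 0.24), and Wfdc17 fell by 0.63 ± 0.16, which did not pass without untreated replicate 1 or 2 or treated replicate 1 (adjusted p up to 0.0642). Several classical mediators were below the filter: Ptgs2 held 23 counts in total, Nos2 37 and Il10 21. Nos2 and Il10 were at 0 in every untreated library and at 1.54 to 9.82 and 0.307 to 7.95 CPM in the treated ones, with treated replicate 4 the highest for both. S100a8 and S100a9, abundant calcium-binding proteins of neutrophils and monocytes, did not pass (log2 change −0.57 ± 0.59 and −0.71 ± 0.69), and S100a9 held 1089.6, 631, 1566 and 1377 CPM untreated and 1308, 215, 153 and 1176 CPM treated.

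Surface receptors for antibody, complement, sugars and debris changed in both directions. Of 21 tested Fc and complement genes, 7 rose and 4 fell, and 10 rose without treated replicate 4. Cfb, factor B of the alternative complement pathway, held 9.04, 9.02, 6.97 and 6.65 CPM untreated and 208, 355, 272 and 176 CPM treated and rose by 5.02 ± 0.27. The activating antibody receptor gene Fcgr4 rose by 2.43 ± 0.42 and the anaphylatoxin receptor C5ar1 by 2.15 ± 0.37, while the inhibitory Fcgr2b fell by 0.97 ± 0.17 and the neonatal receptor Fcgrt by 2.08 ± 0.33. Of 27 tested scavenger receptors and lectins, 8 rose and 5 fell. Siglec1, the sialoadhesin of activated monocytes and macrophages, rose by 2.47 ± 0.27, Cd300e by 3.63 ± 0.47, the lectin Clec4e, encoding Mincle, by 2.83 ± 0.21 and Trem1, which amplifies inflammatory signals, by 2.59 ± 0.22. The mannose receptor Mrc1 fell by 3.06 ± 0.52 and the lectin Clec10a by 1.84 ± 0.35. Siglec1 and Cd300e rose beside a higher sum of tissue macrophage markers and an overlapping sum of patrolling monocyte markers, whose part was not tested. Cd300e is itself a patrolling monocyte marker, and of the 7 tested markers of that list 3 rose and 1, Cx3cr1, fell.

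Of 14 listed members of the Ly6 family, 10 were not tested, 3 of them at 0 in all libraries. The 4 tested members rose, and the family includes an antigen of the sort. Ly6a reached the filter on the mean only through the treated libraries, so the share of risen members is not read as a result. Ly6c2, which encodes Ly6C, held 130.3, 206, 119 and 115 CPM untreated and 808, 1005, 967 and 1073 CPM treated, a rise of 2.76 ± 0.21, and the lowest treated library lay well above the highest untreated one. Its near copy Ly6c1 was below the filter, at 0 to 3.32 CPM untreated and 9.36 to 11.4 CPM treated. Ly6i rose by 2.79 ± 0.24 and Ly6e by 0.83 ± 0.17. Ly6C was also an antigen of the sort, and whether the gate took in the same cells in both groups was not tested.

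Signaling and cell death genes rose in part. Of 34 tested genes of the Toll-like receptor and NF-kB pathway, 10 rose and 1 fell, and 15 rose without treated replicate 4. The feedback inhibitors Nfkbia and Tnip1 rose by 1.38 ± 0.16 and 1.42 ± 0.18, the kinase gene Ikbke by 1.69 ± 0.17, and Tlr8 fell by 0.99 ± 0.22. Of 34 inflammasome and cell death genes, 13 rose (16 without treated replicate 4) and 1 fell, including Daxx (1.68 ± 0.25) and the necroptosis effector Mlkl (1.27 ± 0.20) among the risen and Nlrp1b as the fallen (−1.24 ± 0.25). Of 24 immediate early and heat shock genes, which often respond to cell handling, 3 rose and 2 fell, close to the shares over all tested genes (10.7% and 8.96%). The phosphatase genes Dusp2 and Dusp5 rose by 2.17 ± 0.39 and 1.31 ± 0.27 and the transcription factors Fosl2 and Atf3 fell by 1.28 ± 0.21 and 1.44 ± 0.33.

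Metabolic genes rose in several pathways. Of 15 tested NAD, purine and nucleotide genes, 7 rose and 0 fell, and without treated replicate 4 it was 9 and 1. Cd38, an enzyme that consumes NAD, held 9.04, 11.4, 8.2 and 5.73 CPM untreated and 83.6, 84.8, 106 and 134 CPM treated and rose by 3.61 ± 0.24, the antiviral nucleotide kinase Cmpk2 rose by 2.25 ± 0.22, Nt5c3 by 1.68 ± 0.17 and the uridine phosphorylase Upp1 by 2.66 ± 0.42. In amino acid metabolism 4 of 17 tested genes rose and 1 fell, against 10.7% and 8.96% of all tested genes. Without treated replicate 4 it was 7 of 16 and 1. With all libraries, the risen genes beside Acod1 were Ass1, which regenerates arginine (2.94 ± 0.20), the amino acid transporter subunit Slc3a2 (1.07 ± 0.23) and the polyamine enzyme Odc1 (1.5 ± 0.31). Glutamine synthetase Glul fell by 0.91 ± 0.19. Ass1 held 36.2, 27.1, 25 and 26.6 CPM untreated and 179, 293, 225 and 178 CPM treated. Of 24 oxidative burst genes 10 rose and 1 fell, with Sod2, the mitochondrial superoxide dismutase, up by 1.62 ± 0.18, thioredoxin Txn1 up by 1.29 ± 0.13 and catalase (Cat) as the gene that fell (−0.59 ± 0.10). Glycolysis had 10 of 22 tested genes rising and 2 falling, most by small amounts such as Pfkl (0.89 ± 0.11) and Tpi1 (0.78 ± 0.13), while Ldhb, a lactate dehydrogenase subunit, fell by 3.42 ± 0.45 and Pfkfb4 by 1.21 ± 0.22. Of 36 nuclear-encoded respiratory chain genes 5 rose and 0 fell, including cytochrome c (Cycs, 0.96 ± 0.16), a share of risen genes close to the 10.7% over all tested genes.

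Lipid genes fell more often than they rose. Of 28 tested genes of cholesterol synthesis and lipid transport, 2 rose and 8 fell, with a median of −0.40. Cyp51, a demethylase of cholesterol synthesis, held 53.2, 43.2, 29.9 and 33 CPM untreated and 9.74, 17.8, 10.6 and 11.7 CPM treated and fell by 1.65 ± 0.25. Nr1h3, encoding the oxysterol receptor LXR alpha, moved the other way and rose by 2.99 ± 0.21, from 30.3, 19, 24.2 and 31.4 CPM to 152, 234, 249 and 203 CPM. The cholesterol exporter gene Abca1 rose by 1.48 ± 0.41 but did not pass without treated replicate 4 (adjusted p = 0.0567), and it was lost in 8 of 15 alternative fits in all. Of 15 eicosanoid enzymes 3 rose and 1, Hpgd, fell, against 10.7% and 8.96% of all tested genes. The risen ones included Pla2g7 (1.33 ± 0.21), and without treated replicate 4 the counts were 2 and 2. Iron genes had 2 of 20 tested genes rising, the ferritin chains Fth1 (1.25 ± 0.17) and Ftl1 (0.81 ± 0.19), and 2 falling, the ferrireductase Steap3 (−2.32 ± 0.39) and Bach1, a heme-regulated repressor (−0.74 ± 0.12), so both shares were close to those over all tested genes. Of 23 lysosomal protease genes 5 rose (7 without treated replicate 4) and 0 fell, among them Ctsd (1.97 ± 0.28), the cathepsin inhibitor Cstb (1.52 ± 0.15), Ctsz (1.33 ± 0.18) and Ctsb (1.16 ± 0.18).

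Myeloid transcription factors changed in both directions. Of 33 tested 6 rose and 8 fell (10 without treated replicate 4). Batf2 rose by 3.2 ± 0.50, while Ahr, the aryl hydrocarbon receptor, fell by 2.07 ± 0.22, Batf3 by 1.52 ± 0.28, Cebpa by 1.49 ± 0.27, Cebpd by 1.12 ± 0.20 and Klf6 by 0.58 ± 0.10. Ahr held 111, 135, 128 and 93.3 CPM untreated and 27.6, 25.2, 19.4 and 39.8 CPM treated. Of 36 adhesion and migration genes 5 rose and 4 fell, close to the shares over all tested genes (7 and 5 of 35 without treated replicate 4), with the membrane protease Mmp14 (3.63 ± 0.33) and the tetraspanin Cd82 (1.59 ± 0.21) among the risen and fibronectin (Fn1) and Timp2 falling by 1.97 ± 0.30 and 1.17 ± 0.18. Fn1 held 3244, 4609, 2649 and 2368 CPM untreated and 1090.4, 903, 461 and 840.2 CPM treated. Of 48 cell cycle genes 8 rose (6 without treated replicate 4, near the 10.7% over all tested genes) and 1 fell, and the risen ones beside Ccnd2 included Ccne1 (2.02 ± 0.27) and Bub1b (1.2 ± 0.25), while the cycle inhibitor Cdkn1b fell by 0.62 ± 0.15 but did not pass without untreated replicate 3 or 4 (adjusted p up to 0.0544). The summed level of the cell cycle list was 2577, 2384, 3607 and 3141 CPM in the untreated libraries and 4987, 2839.5, 2568 and 6233 CPM in the treated ones, so that treated replicates 1 and 4 lay above and treated replicates 2 and 3 within the untreated range. Treated replicates 1 and 4 were also those with the highest sums of neutrophil precursor and of basophil, mast cell and eosinophil markers, whose part was not tested.

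The effect in the spleen was then compared with that in M-MDSC from tumors (3 treated and 4 untreated libraries, after leaving out a treated one with 10 counts) by an interaction term. The titles of the libraries share numbers between organs and between cell types, so the groups compared here and with PMN-MDSC come from the same mice, but the columns of counts carry a running number and no mouse number, libraries were not matched by column order, and the fits treat the libraries as independent. The effects differed at an adjusted p under 0.05 for 69 of 8730 tested genes (0.79%), 49 of them with the larger value in the spleen. Of 159 named genes checked, 19 differed. Most of the 159 were named for their changes in the same spleen libraries, which favors large differences, so this number is not read as a result. Ccrl2 changed by 3.66 ± 0.35 in the spleen and by −0.33 in tumors, a difference of 3.97 ± 0.52 (adjusted p = 0.00249). Ccnd2 differed by 3.28 ± 0.42, Cxcl10 by 4.08 ± 0.74, Ccl4 by 5.30 ± 0.90, Acod1 by 4.87 ± 1.02 and Trem1 by 3.49 ± 0.69. Changes more negative in the spleen than in tumors were found for Abca9 (difference −3.86 ± 0.72), Plxdc2 (−4.06 ± 0.87), Cebpa (−2.19 ± 0.46) and Timp2 (−2.66 ± 0.51). In tumors these genes changed by −0.73, −0.02, 0.67 and 1.46 in this order. Leaving out 1 spleen library moved the number of genes that differed to between 7 (without treated replicate 3) and 80 (without treated replicate 4).

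**Figure D5:**
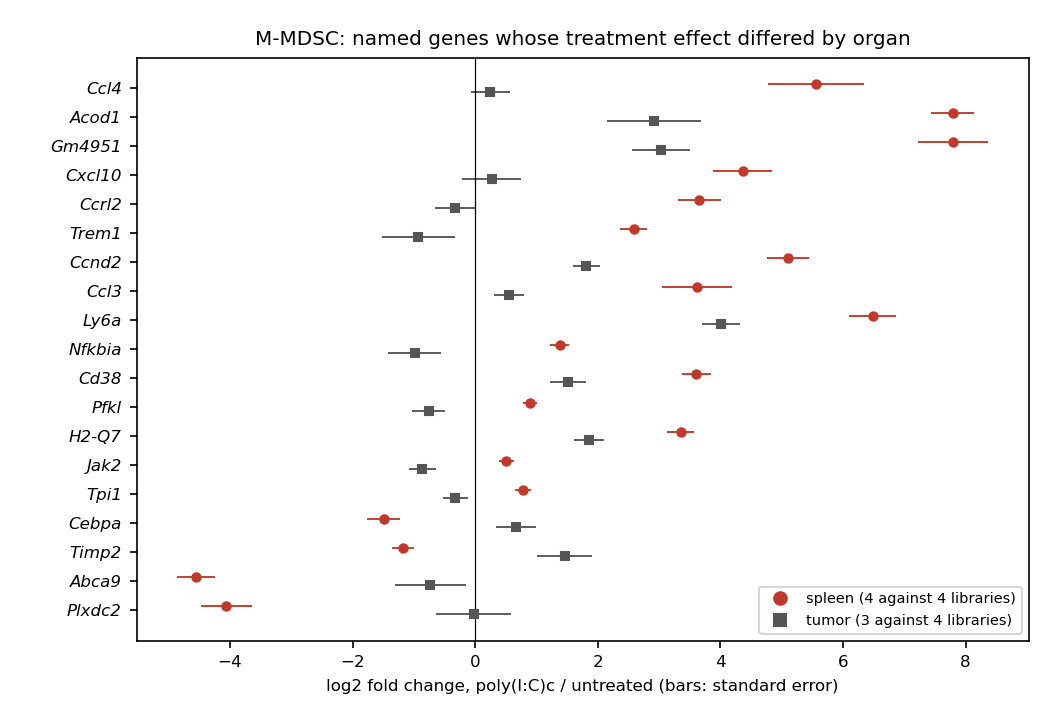
Log2 fold change of poly(I:C)c over untreated in M-MDSC from spleen (red circles, 4 against 4 libraries) and tumor (grey squares, 3 against 4), with standard errors, for the 19 named genes whose effects differed at an adjusted p under 0.05. Ccl4 and Cxcl10 changed by 5.55 and 4.36 in the spleen and by 0.25 and 0.27 in tumors, and Timp2 by −1.17 and 1.46. Most named genes were chosen for their changes in the spleen libraries, which favors large differences.

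Compared with polymorphonuclear MDSC (PMN-MDSC, sorted as CD11b+ Ly6C low Ly6G+) of the same organ (3 treated and 4 untreated libraries), the effects differed for 914 of 8417 tested genes (10.9%), 543 with the larger value in M-MDSC and 371 with the smaller. With at least 10 counts required in every library the number was 513. The filter on the mean also admits genes that are high in M-MDSC alone. Of the genes named above, 49 were among them, and both comparisons rest on the same spleen M-MDSC libraries. Most named genes were chosen for their changes in these libraries, which favors large differences. Larger in M-MDSC were the changes of Acod1 (difference 4.59 ± 0.81), Ccnd2 (4.07 ± 0.58), Nr1h3 (3.98 ± 0.68) and Slfn4 (2.10 ± 0.40). Smaller in M-MDSC were those of several interferon-stimulated genes, with differences of −4.65 ± 0.63 for Ifi206, −3.01 ± 0.64 for Ifit1bl1, −2.89 ± 0.56 for Ifi208, −2.04 ± 0.56 for Ifit2 and −1.74 ± 0.48 for Herc6. These genes rose in M-MDSC too, by the values given above. Acvrl1 fell in M-MDSC and changed by 2.17 in PMN-MDSC, a difference of −3.70 ± 0.43 (adjusted p = 0.000564).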

How the data were processed

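Reads were aligned by the authors to mm10 with ContextMap, which ran BWA internally, and fragments were assigned to Gencode v16 genes strand by strand with featureCounts (Subread 1.4.6-p3). The deposited values are these raw counts. Libraries were made from total RNA by PCR after depletion of ribosomal RNA, with no molecular identifiers described, so intervals and floors cover counting error only. Symbols and positions came from GENCODE M21 on GRCm38, matched for 53274 of 53379 identifiers. Column names give cell type, organ and treatment but no mouse number. Libraries are numbered 1 to 4 within a group in column order.

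Counts of the 8 spleen M-MDSC libraries were fitted with edgeR 4.0.16 (R 4.3.3, limma 3.58.1) with TMM scaling, robust dispersions and the two-sided quasi-likelihood F-test, for genes averaging 25 or more counts, with p-values adjusted by Benjamini-Hochberg over all tested genes. Treatment effects were compared with those in tumor M-MDSC and spleen PMN-MDSC by interaction terms over the 4 groups concerned. Libraries under 1000 counts were left out, which removed 1. The code was tested on simulated counts. Genes were named by rule: the 15 largest changes in each direction past the strict thresholds whose groups do not overlap, up to 4 risen and 4 fallen members of each list by adjusted p, and a fixed set of sensors, sorting antigens and suppressive mediators. Csf1r, H2-K1, Socs1, Ifit1, Upp1, Cebpa, Ighm, Igkc, Gzma, Gzmb, Ifnb1, the genes of the chromosomal runs and the markers at 0 are named beyond it and were chosen after their values were seen. A few genes are not reported here. The comparison, the lists and the tests were chosen with earlier results of these data known. Alternatives were DESeq2 1.42.0, RLE and upper-quartile scaling, other count filters, no robust estimates, a fit over the 4 M-MDSC groups, an adjusted p under 0.05 with 2-fold, and each library left out in turn.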

Additional observations from a re-analysis of the deposited data

Results flagged for a closer look

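Of 318 groups of 4 libraries checked over the named genes, 13 held 1 library far from the other three of its group by Dixon's ratio at the 95% level, and chance gives about 1 in 20. Untreated replicate 2 was high for Socs1 (10.9 CPM, others 3.44 to 4.25), Iigp1 (9.97 CPM, others 1.23 to 2.66) and Fcgr4 (31.3 CPM, others 15.4 to 17.7). It was low for Rsad2 (16.1 CPM, others 27.5 to 28.7), Il1rn (44.6 CPM, others 93.9 to 103) and Abca1 (8.07 CPM, others 23.4 to 25.5). Treated replicate 2 was high for Usp18 (532 CPM, others 263 to 306) and Tnfsf10 (59.3 CPM, others 33.3 to 35.7). Treated replicate 3 was high for Slfn4 (3058 CPM, others 2017 to 2083), Iigp1 (198 CPM, others 89.1 to 97.0) and Ifi208 (198 CPM, others 135 to 142). Treated replicate 4 was high for Odc1 (58.5 CPM, others 22.7 to 28.3) and low for Ccl9 (85.1 CPM, others 125 to 131). The same check set apart treated replicate 4 for the summed markers of B cells and plasma cells (23234 CPM), T cells (77.2 CPM), NK cells (339 CPM) and plasmacytoid dendritic cells (189 CPM, others 93.4 to 109), and untreated replicate 2 for those of basophils, mast cells and eosinophils (66.4 CPM, others 12.3 to 18.1).

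The treatment effect differed between spleen and tumor M-MDSC for 19 named genes by the interaction term (adjusted p under 0.05, edgeR, log2 difference in parentheses). Most named genes were chosen for their changes in spleen M-MDSC, which favors large differences here and in the comparison with PMN-MDSC. The log2 change was more positive, or less negative, in the spleen for Ccl4 (5.3), Acod1 (4.87), Gm4951 (4.73), Cxcl10 (4.08), Ccrl2 (3.97), Trem1 (3.49), Ccnd2 (3.27), Ccl3 (3.06), Ly6a (2.45) and Nfkbia (2.35). The same held for Cd38 (2.07), Pfkl (1.63), H2-Q7 (1.48), Jak2 (1.34) and Tpi1 (1.08). It was more negative, or less positive, in the spleen for Plxdc2 (−4.06), Abca9 (−3.86), Timp2 (−2.66) and Cebpa (−2.19).

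Against spleen PMN-MDSC, 49 named genes differed by the same test. The log2 change was more positive, or less negative, in M-MDSC for Acod1 (4.59), Ccnd2 (4.07), Nr1h3 (3.98), Ccl5 (3.08), Ly6a (2.68), Fpr1 (2.63), Il1rn (2.47), Slfn4 (2.1), Dusp5 (1.96) and C5ar1 (1.62). Next in size of this difference were Trem1 (1.59), Clec4e (1.55), Cycs (1.5), Cd82 (1.5), Trim30b (1.3), Fth1 (1.14) and Pfkl (1.0). It was more negative, or less positive, in M-MDSC for Ifi206 (−4.65), Acvrl1 (−3.7), Ifit1bl1 (−3.01), Ifi208 (−2.89), Wfdc17 (−2.83), Nat8l (−2.38), Timp2 (−2.37), Ifit2 (−2.04), Slfn3 (−1.84) and Pfkfb4 (−1.81). Negative differences of a lesser size were found for Ly6e (−1.76), Herc6 (−1.74), Glul (−1.6), Fosl2 (−1.51), Ube2l6 (−1.44), Cebpa (−1.42), Ly6c2 (−1.34), Bach1 (−1.12), Il17ra (−0.99) and Ifnar2 (−0.95), and then Dhx58 (−0.89).
The other 11 of the 49 were below the filter within PMN-MDSC and were tested through the M-MDSC libraries, so neither the direction nor the size of their differences is read as a result: Gm4951 (7.4), Kdr (6.09), Adgb (5.79), Iigp1 (5.1), Rgs1 (4.69), Cd300e (3.99), Ass1 (3.44), Mmp14 (2.85), Mavs (2.77), Dusp2 (2.76) and Il21r (2.71).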

How the results depend on the processing

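No paired analysis was possible because the treated and untreated mice carry different numbers in the labels and the columns of the count table carry a running number in its place, and spleen, tumor and PMN-MDSC libraries were not matched to mice by column order. By the strict rule (adjusted p under 0.001 and 2-fold), DESeq2 called 377 genes higher and 233 lower, no filter on low counts gave 375 and 204, and an adjusted p under 0.05 with 2-fold gave 427 and 292, against 161 and 57. The other scalings, the stricter filter, the fit without robust estimates and the fit over the 4 M-MDSC groups stayed within 1.5 times. With 1 library left out, 49 to 188 genes were higher and 8 to 58 lower, the lowest of both without untreated replicate 1. At an adjusted p under 0.05, 625 to 1026 rose and 464 to 786 fell with 1 library left out, against 942 and 791, with the lowest of both without untreated replicate 4. Upper-quartile scaling moved the median log2 change of all genes from −0.01 to −0.05. The number of genes whose effect differed between spleen and tumor M-MDSC was 307 with DESeq2, 659 without a filter and 7 to 80 with 1 spleen library left out, against 69, with the lowest without treated replicate 3. Against spleen PMN-MDSC it was 1590 without a filter, 513 with at least 10 counts in every library and 614 to 834 with 1 library left out, against 914. The causes were not tested. Of 151 named genes that rose or fell, 139 stayed past the threshold in the same direction under every alternative that tested them (107 were tested in all 15, the other 32 in 12 to 14), and 12 were lost under at least 1 (Socs1, Jak2, Stat5b, Cish, Ifitm2, Slfn3, Ccl6, Ccl9, Il17ra, Wfdc17, Abca1 and Cdkn1b). Without treated replicate 4, 148 passed. With 1 library left out the log2 change ran from −0.27 to 0.00365 for Mavs and from −0.31 to 0.13 for Cd86, positive without untreated replicate 2 and without treated replicate 4, and neither gene passed, and Tgfb1 passed only without treated replicate 2. The counts of the sensor, ISG15, antiviral, PYHIN and Schlafen, TRIM and PARP, MHC class I and MHC class II lists stayed within 1.5 times in their leading direction under all alternatives. Risen members moved by over 1.5 times for the receptor, JAK-STAT and IRF list (2 to 7), chemokine ligands (1 to 8) and receptors (1 to 3), cytokines (7 to 15) and their receptors (4 to 7), checkpoint genes and suppressive mediators (both 3 to 7), oxidative burst (5 to 11), amino acid (4 to 7), lipid (1 to 3), iron (2 to 5), glycolysis (6 to 11), respiratory chain (1 to 6), cell cycle (3 to 12), transcription factor (2 to 8), adhesion (3 to 8), immediate early (2 to 6) and class II genes (0 to 2). Fallen members of lists with at least 5 moved so for cytokine receptors (3 to 6), scavenger receptors (2 to 9) and lipid genes (4 to 14), where the fit without a filter also tested more members. At 1896132 to 4200907 counts a library, genes such as Nos2 and Il10 were too low to be compared.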
